A study of Mus musculus with 10 samples.

Results

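The extracellular matrix is the network of secreted proteins that surrounds cells in a tissue, and 38 genes that encode its collagens and other matrix proteins were followed here in mouse lung tumours. The members were taken from a fixed list of symbols and were found among 32285 genes in a single-cell count matrix and among 55341 genes in bulk count tables. Fibrillar collagens form the stiff fibres of connective tissue, and were represented by 6 genes (Col1a1, Col1a2, Col3a1, Col5a1, Col5a2 and Col5a3). Basement membranes are thin sheets under epithelium and endothelium, built on type IV collagen and laminin and tied together by nidogen and perlecan, and were represented by 9 genes (Col4a1, Col4a2, Col15a1, Col18a1, Lama4, Lamb1, Lamc1, Nid1 and Hspg2). The other collagens were Col6a1, Col6a2, Col6a3, Col8a1, Col12a1 and Col14a1, 6 genes. Elastic fibres and the enzymes that cross-link them were represented by 5 genes (Eln, Fbn1, Lox, Loxl1 and Loxl2), and proteoglycans by 4 genes (Dcn, Lum, Bgn and Vcan). The last 8 genes were grouped as adhesive and matricellular. Fn1, Sparc, Sparcl1, Postn, Tnc, Thbs1 and Thbs2 encode proteins that link cells to the matrix or modulate that contact. Mgp, placed in the same group, encodes a matrix inhibitor of calcification. In lung and in lung tumours, fibroblasts are the main known source of fibrillar collagen, while endothelial and epithelial cells lay down their own basement membrane.

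The tumours were grown from KP cells, a mouse lung adenocarcinoma line, injected into the vein of syngeneic mice, and every mouse carried such tumours and received its treatment for 11 days. SHP099 is an allosteric inhibitor of the phosphatase SHP2 (encoded by Ptpn11), and SX682 inhibits the chemokine receptors CXCR1 and CXCR2. Single-cell RNA-seq covered 4 groups of 3 mice, given vehicle, SHP099, SX682 or SHP099 together with SX682 (called the combination below). The 3 mice of a treatment were tagged with hashtag antibodies and pooled into 1 capture, so that treatment and capture cannot be told apart. Bulk RNA-seq covered Epcam+ cells sorted from the tumours, with 3 libraries from SHP099 and 3 from vehicle. The labels do not state the mice's age, sex, strain or dose, nor whether the bulk libraries came from separate mice. The bulk p-values therefore measure the spread between these libraries, which may be technical.

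Reference promoter sequence is shown for 4 members whose values recur below: Col3a1 was called higher in fibroblasts under SHP099, Nid1 was called lower in tumour cells, and Col5a3 and Thbs2 had the lowest fold changes among members in the bulk data. The sequences are from RefSeq on GRCm38.p6 and are read 5′ to 3′ on the gene's own strand, ending 1 base before the start of the transcript, or 52 bases before it for Nid1. Capitals mark the letters CCAAT or TATAAA on either strand (ATTGG and TTTATA on the other).
Col3a1, chr1:45311288-45311537, plus strand: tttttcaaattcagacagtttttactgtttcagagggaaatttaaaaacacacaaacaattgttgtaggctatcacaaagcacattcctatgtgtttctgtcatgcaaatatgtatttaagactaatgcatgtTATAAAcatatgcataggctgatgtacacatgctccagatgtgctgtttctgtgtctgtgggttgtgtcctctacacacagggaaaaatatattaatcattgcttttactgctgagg
Col5a3, chr9:20815068-20815317, minus strand: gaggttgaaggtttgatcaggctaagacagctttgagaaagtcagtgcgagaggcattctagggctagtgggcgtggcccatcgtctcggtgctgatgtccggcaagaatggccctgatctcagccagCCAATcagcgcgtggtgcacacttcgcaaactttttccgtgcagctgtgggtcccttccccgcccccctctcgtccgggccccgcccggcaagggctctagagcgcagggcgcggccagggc
Thbs2, chr17:14694263-14694512, minus strand: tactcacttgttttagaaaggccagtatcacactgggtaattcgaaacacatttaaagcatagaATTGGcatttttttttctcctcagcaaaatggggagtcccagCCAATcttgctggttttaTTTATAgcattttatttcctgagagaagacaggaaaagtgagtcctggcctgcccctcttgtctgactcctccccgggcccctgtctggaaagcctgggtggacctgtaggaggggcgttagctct
Nid1, chr13:13437352-13437550, plus strand: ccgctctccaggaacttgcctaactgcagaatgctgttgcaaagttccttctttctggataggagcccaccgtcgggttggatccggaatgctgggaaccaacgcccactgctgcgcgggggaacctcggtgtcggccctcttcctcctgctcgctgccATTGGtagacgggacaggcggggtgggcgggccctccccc
Only the Thbs2 sequence of these 4 holds both motifs. Among the 26 promoter windows of the 22 members that could be matched, 9 held CCAAT (34.6%), against 33.8% of all 32851 windows of the same length. TATAAA was in 5 of the 26 (19.2%), against 12.4% of all windows. These 5 include overlapping windows of the same gene, Tnc, so they are not separate promoters. Col4a1 and Col4a2, which encode the 2 chains of the common type IV collagen, lie head to head on chromosome 8. Col4a1 runs along the minus strand from base 11312826 and Col4a2 along the plus strand from base 11312805, so their first exons overlap by 22 bases in GENCODE on mm10.

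The matrix held 44986 cells in the authors' 33 clusters, and 2022 cells (4.49%) carried a barcode sequence that also occurs in another capture. Cluster 20 held 379 cells with a median of 7083 UMIs (unique molecular identifiers, each 1 counted RNA molecule). It is called fibroblast here: it met 10 of 13 fibroblast markers, and also 6 of 8 mural and 3 of 4 mesothelial markers. Clusters 10 (881 cells) and 11 (385 cells) met 11 of 11 endothelial markers, and cluster 11 also met 4 of 4 lymphatic markers. Cluster 21 (2071 cells, led by Lypd8 and Muc3) met 5 of 6 tumour epithelial markers and cluster 23 (2022 cells, led by Cdkn2a, Ankrd1 and Hmga2) met 3 of 6. Cluster 16 (1377 cells, led by Arg1 and Pf4) was left unnamed. Cells were unevenly spread: fibroblasts numbered 94, 43 and 27 in the vehicle mice, 7, 5 and 4 in the SHP099 mice, 54, 46 and 7 in the SX682 mice, and 38, 34 and 20 in the combination mice. SX682 mouse 3 stood apart from the other mice of its group in its cell counts and its summed matrix level. The bulk libraries held between 51939301 and 73361005 reads counted to genes.

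Most members were expressed at their highest level in the fibroblast cluster: over all mice, 28 of 38 peaked there, and 7 peaked in endothelial cluster 11 (Col4a1, Col4a2, Lama4, Lamc1, Nid1, Hspg2 and Sparcl1). The remaining 3 peaked elsewhere, Col18a1 in tumour cluster 23, Vcan in monocyte cluster 12 and Thbs1 in neutrophil cluster 31. Levels below are in CPM (counts-per-million: the gene's UMIs scaled to the total UMIs of the same cells), as mean ± SD over the 3 vehicle mice. Among fibrillar collagens, Col3a1 stood at 2470 ± 488 in fibroblasts, Col1a2 at 1810 ± 370 and Col1a1 at 1610 ± 383. Fibroblasts supplied 94.9%, 94.4% and 93.6% of the UMIs of these 3 genes, counted over all mice. Dcn and Bgn, small proteoglycans that bind collagen fibres, stood at 2410 ± 667 and 2010 ± 145, with 92.0% and 87.2% of their UMIs from fibroblasts. Col6a1 (54.6%), Loxl2 (41.6%) and Col14a1 (39.3%) drew a smaller share from them. Mgp, a small inhibitor of calcification, reached 15000 ± 2670 in fibroblasts, and Sparc, a collagen-binding matricellular protein, 5420 ± 443. These are tag-like 5′ counts, so a level compares 1 gene between cells and not 1 gene with another.

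Other members were spread over more cell types. Fn1, which encodes fibronectin, stood at 5370 ± 571 CPM in fibroblasts and 2110 ± 596 in cluster 16, yet cluster 16 supplied more of its UMIs (28.8% against 25.5%), being the larger cluster. Col4a1 stood at 1640 ± 374 in endothelial cluster 11, 371 ± 76.9 in fibroblasts, 117 ± 12.5 in tumour cluster 21 and 70.8 ± 0.292 in tumour cluster 23. Among the same clusters Col4a2 followed the same order, at 1260 ± 234, 272 ± 77.9, 81.3 ± 4.34 and 43.7 ± 2.26. Over all mice pooled, endothelial cluster 10 had the second highest level of both genes, 630 CPM for Col4a1 and 503 for Col4a2. Neutrophils supplied 42.8% of the UMIs of Thbs1, the gene of thrombospondin 1, at 2470 ± 185 CPM, and cluster 16 supplied 23.6% at 1600 ± 294. Monocytes supplied 36.3% of the UMIs of Vcan, the large proteoglycan versican, at 257 ± 151 CPM.

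**Figure D1:**
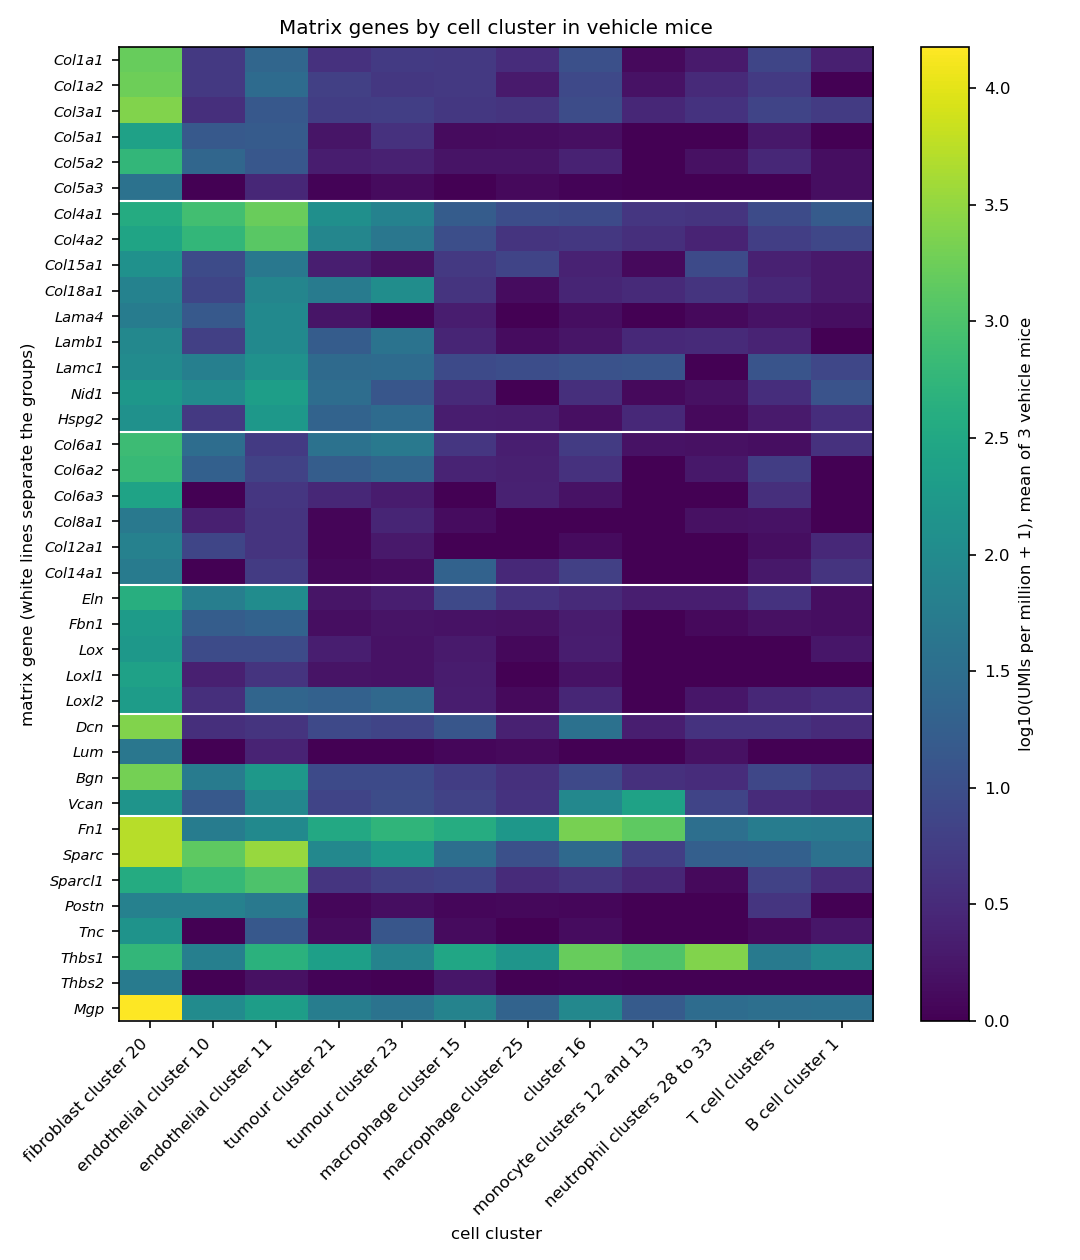
Level of each of the 38 matrix genes (rows) in 12 cell sets (columns), as log10 of CPM plus 1, mean of the 3 vehicle mice. Counted over all mice, and not from the vehicle means drawn, 28 genes had their highest level in the fibroblast cluster. Col4a1 and Col4a2 are highest in endothelial cluster 11.

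Summed over the 38 members and all cells, matrix RNA was lower in SHP099 and combination mice than in vehicle mice, without overlap. The vehicle mice stood at 2949, 2632 and 2200 CPM, and the SHP099 mice at 1329, 1190 and 1003. The combination mice stood at 1597, 1469 and 1580, and the SX682 mice at 3586, 2671 and 691.5. The SX682 mice thus spanned both sides of the vehicle range. Relative to the vehicle mean, the group means were 0.453 under SHP099, 0.893 under SX682 and 0.597 under the combination. No test was run on this sum, since the members were chosen with earlier results known. Expressed as UMIs per cell in place of CPM, the ratios were 0.236, 0.764 and 0.295. Without SX682 mouse 3 the SX682 ratio was 1.21.

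The makeup of the samples differed between the groups in the same comparison. Fibroblasts were 1.25 ± 0.22% of cells in vehicle mice (SD, n = 3), 0.174 ± 0.0115% under SHP099, 0.928 ± 0.613% under SX682 and 0.735 ± 0.142% under the combination. Within fibroblasts, the summed members stood at 42700 ± 985 CPM in vehicle mice, 65500 ± 6340 under SHP099, 39600 ± 7700 under SX682 and 43700 ± 6430 under the combination. The sum within fibroblasts was not lower in SHP099 mice, and the fibroblast share of cells was lower. Over all mice, Mgp was the largest single part of the sum within fibroblasts. The part of sample makeup in the summed level over all cells was not tested. Fibroblasts supplied 39.8 to 52.6% of all member UMIs in vehicle mice and 17.8 to 22.9% in SHP099 mice. Neutrophils supplied 2.13 to 3.63% in vehicle mice, 40.6 to 42.9% in SHP099 mice and 21.9 to 25% in combination mice. Within neutrophils the members summed to 3563, 3066 and 3318 CPM in the SHP099 mice. Nearly all of this was Thbs1, whose neutrophil values are given below, so the share does not describe collagens. Clusters 21, 23 and 16 also took smaller shares of cells in SHP099 mice, from 10.3 to 0.718%, from 8.02 to 1.7% and from 8.32 to 0.327%.

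**Figure D2:**
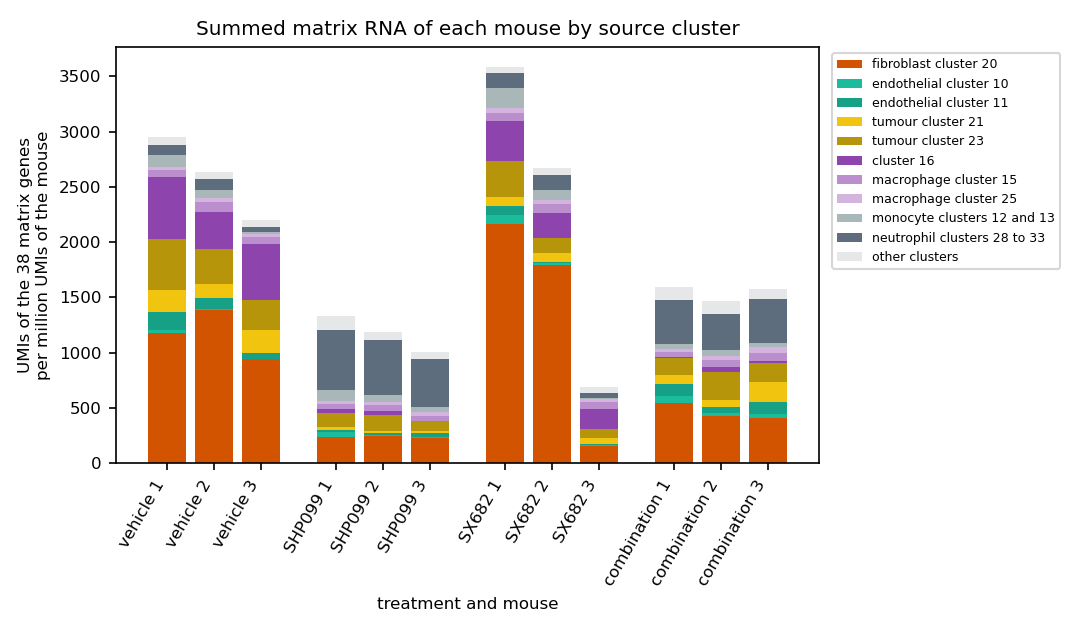
CPM summed over the 38 matrix genes within all cells, 1 bar for each mouse, stacked by the cluster that supplied them. The SHP099 bars (1003 to 1329) and combination bars (1469 to 1597) lie below the vehicle bars (2200 to 2949), and the third SX682 bar (691.5) is the lowest of all.

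In fibroblasts, SHP099 was the treatment with the most member calls, 10 higher and 2 lower out of 37 tested (Col5a3 was not tested). The SHP099 mice had 7, 5 and 4 fibroblasts, so this comparison exists only in a fit that keeps every mouse with a cell, in place of mice with at least 10. A call is an adjusted p below 0.05 over all genes tested, from edgeR's quasi-likelihood test on counts summed per mouse, two-sided. In that comparison 11.5% of all 3160 genes were called. The median log2 fold change was 0.67 over the members and -0.14 over all genes tested. By role, 2 of 5 fibrillar collagens, 2 of 9 basement membrane genes, 1 of 6 other collagens, 2 of 5 elastic fibre genes and 3 of 8 adhesive and matricellular genes were called higher. The lower calls were 1 of 4 proteoglycans and 1 of the adhesive genes. The count of 12 was 7 without SHP099 mouse 1, 3 without SHP099 mouse 2, 5 without SHP099 mouse 3, 4 without vehicle mouse 2 and 3 without vehicle mouse 3.

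Of the fibrillar collagens, Col3a1 rose in SHP099 fibroblasts. It stood at 2350, 2060 and 3010 CPM in the vehicle mice and at 4580, 5040 and 6050 in the SHP099 mice. The groups did not overlap, and edgeR gave a log2 fold change of 0.94 ± 0.19 (SE, n = 3 against 3) with an adjusted p of 0.00932. Col1a2 stood at 1750, 1480 and 2210 in vehicle and 3950, 2820 and 3360 in SHP099 mice, also without overlap (0.77 ± 0.22, adjusted p = 0.0409). Its partner chain Col1a1 did not pass, at 1640, 1210 and 1970 against 4140, 1980 and 1640 (0.58, adjusted p = 0.355). The Col1a2 call was lost in 13 of 16 alternative settings, among them those leaving out any 1 vehicle, SHP099 or combination mouse or SX682 mouse 1 or 2 (adjusted p up to 0.829). The Col3a1 call was lost with no low-count filter and when SHP099 mouse 3, vehicle mouse 1 or vehicle mouse 2 was left out, with adjusted p from 4.13e-05 to 0.505 over its alternatives.

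Both type IV collagen chains rose as well. Col4a1 stood at 459, 318 and 336 in vehicle fibroblasts and at 533, 1020 and 1160 in SHP099 fibroblasts (log2 fold change 1.12 ± 0.28, edgeR adjusted p = 0.0244). Col4a2 stood at 359, 247 and 210 against 605, 553 and 635 (1.00 ± 0.26, adjusted p = 0.028). Neither pair of groups overlapped. The Col4a1 call was lost in 6 of 16 alternatives, among them those without SHP099 mouse 2 or 3, vehicle mouse 2 or 3 or combination mouse 2 (adjusted p up to 0.429). The Col4a2 call was lost in 11 of 16, among them those leaving out any 1 SHP099 or combination mouse, SX682 mouse 1 or 2, or vehicle mouse 2 or 3 (adjusted p up to 0.643). Perlecan (Hspg2) and laminin alpha 4 (Lama4) did not pass, with log2 fold changes of 0.61 (adjusted p = 0.395) and 0.67 (adjusted p = 0.496). Col6a3, a chain of the beaded microfilament collagen VI, was called higher although the groups overlapped, at 256, 258 and 276 against 266, 1190 and 1050 (1.49 ± 0.37, adjusted p = 0.0239). This call was lost in 6 of 16 alternatives, among them those without SHP099 mouse 2 or 3 or any 1 vehicle mouse (adjusted p up to 0.154).

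Among elastic fibre genes, Fbn1, which encodes the microfibril protein fibrillin 1, rose from 207, 207 and 179 in vehicle to 388, 582 and 411 in SHP099 fibroblasts (log2 fold change 1.08 ± 0.25, edgeR adjusted p = 0.0177). Loxl1, a lysyl oxidase that cross-links elastin, stood at 261, 242 and 236 against 460, 437 and 635 (0.90 ± 0.24, adjusted p = 0.0297). Neither gene's groups overlapped. The Fbn1 call was lost in 5 of 16 alternatives, among them those without SHP099 mouse 2 or any 1 vehicle mouse (adjusted p up to 0.547). The Loxl1 call was lost in 13 of 16, among them those leaving out any 1 vehicle, SHP099 or combination mouse or SX682 mouse 1 or 2 (adjusted p up to 0.767). Elastin itself (Eln) did not pass, at 391, 757 and 92.9 against 1020, 3460 and 934 (adjusted p = 0.0936).

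Vcan and Fn1 fell in SHP099 fibroblasts. Vcan stood at 142, 137 and 148 in vehicle mice and at 0, 29.1 and 0 in SHP099 mice, a total of 1 UMI. Its edgeR adjusted p was 0.00701, and no alternative lost the call. The fitted log2 fold change of -3.94 ± 0.74 rests on that 1 UMI and depends on the prior count. Fn1 stood at 5520, 4730 and 5840 in vehicle and 3250, 2300 and 2390 in SHP099 fibroblasts, without overlap (-1.14 ± 0.27, adjusted p = 0.0186). Leaving out SHP099 mouse 2 or 3 ended the Fn1 call, with adjusted p up to 0.0663 over its alternatives.

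Of the matricellular genes, Sparcl1, Thbs1 and Postn were called higher. Sparcl1, a Sparc relative that counters cell adhesion, stood at 475, 474 and 145 in vehicle and 1720, 2070 and 1830 in SHP099 fibroblasts (log2 fold change 2.22 ± 0.52, edgeR adjusted p = 0.0186). Thbs1 stood at 659, 772 and 298 against 2660, 903 and 3890 (1.97 ± 0.45, adjusted p = 0.016). Neither gene's groups overlapped. Postn, which encodes periostin, stood at 107, 39.7 and 54.8 against 920, 524 and 37.4, so SHP099 mouse 3 lay below every vehicle mouse (2.80 ± 0.74, adjusted p = 0.0297). Leaving out SHP099 mouse 1 or 2, or vehicle mouse 2 or 3, ended the Postn call (adjusted p up to 0.268). The Sparcl1 call was lost without SHP099 mouse 2 or vehicle mouse 3 (adjusted p up to 0.0595 over all its alternatives). Leaving out SHP099 mouse 1 or 3 or vehicle mouse 3 ended the Thbs1 call (adjusted p up to 0.0771 over all its alternatives). Sparc did not pass, at 5250, 5090 and 5920 against 7220, 7100 and 5310 (0.14, adjusted p = 0.693), nor did Mgp, at 15900, 17000 and 12000 against 21400, 30300 and 26900 (0.67, adjusted p = 0.171). The 25 members that did not pass ran from -2.53 for Thbs2 (adjusted p = 0.364) to 2.52 for Col8a1 (adjusted p = 0.0801), with Col5a3 not tested.

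The few fibroblasts of SHP099 mice also differed in marker genes of the cells that cluster 20 can hold. The 13 fibroblast markers summed to 1630, 1460 and 667 CPM in vehicle mice and to 6100, 9230 and 6240 in SHP099 mice, with 3 of the 13 at 0 in each SHP099 mouse. Gsn made a large part of it, at 673, 674 and 119 in vehicle and 2640, 4080 and 3030 in SHP099 mice. Inmt stood at 304, 230 and 0 against 2230, 1750 and 299. Not every marker was higher: Fap stood at 15.9, 6.62 and 4.76 against 0 in each SHP099 mouse, and Pdpn at 135, 169 and 164 against 72.7, 87.3 and 561. The 8 mural markers summed to 2680, 1040 and 500 against 1940, 7980 and 9900. The 4 mesothelial markers summed to 226, 217 and 348 against 72.7, 0 and 0, and the 6 tumour epithelial markers to 689, 1110 and 1270 against 96.9, 0 and 0. The part of this makeup in the fold changes was not tested.

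Under the combination, Fn1 was the only one of 38 members called in fibroblasts. Fn1 stood at 2740, 2440 and 1620 CPM in the combination mice, below every vehicle mouse (4730 to 5840). Its log2 fold change was -1.41 ± 0.21 (SE, n = 3 against 3, edgeR adjusted p = 0.00579), and no alternative lost the call. In this comparison 3.43% of all genes were called. The median was -0.15 over the members and -0.04 over all genes, with 15 members higher and 23 lower. Fibrillar collagens overlapped the vehicle mice: Col1a1 at 1250, 2290 and 1240 (adjusted p = 0.761), Col1a2 at 1700, 2190 and 2010 (adjusted p = 0.882) and Col3a1 at 3390, 4040 and 3000 (adjusted p = 0.44). Col4a1 stood at 454, 443 and 368 (adjusted p = 0.988), and Sparc at 5160, 5070 and 4620 (adjusted p = 0.304). Col4a2, Lama4 and Hspg2 had log2 fold changes of 0.01 (adjusted p = 0.991), 0.72 (adjusted p = 0.291) and -0.02 (adjusted p = 0.994). Thbs1 did not pass either, at 796, 1150 and 1490 (log2 fold change 0.78, adjusted p = 0.18), although its combination values lay above all 3 vehicle values. The tumour epithelial markers in these fibroblasts summed to 425, 443 and 254 and the fibroblast markers to 4120, 3600 and 8670.

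SX682 alone gave no member call in fibroblasts with edgeR, with 2 mice of at least 10 cells against 3. At an unadjusted p below 0.05 there were 8 of 38 members, and 906 of all 7634 genes. DESeq2 called 1 member, and edgeR called 0.655% of all genes. The member median was 0.05 and that of all genes -0.01. Fn1 stood at 6370, 6870 and 3290 in the 3 SX682 mice (log2 fold change 0.24, adjusted p = 0.737), Col1a1 at 1930, 1540 and 816, Col3a1 at 2750, 2250 and 2430 and Sparc at 6790, 6160 and 3890. Of Col1a1, Col1a2, Col3a1, Col4a1, Col4a2, Fn1, Sparc, Thbs1, Lama4 and Hspg2, the lowest log2 fold change was that of Lama4 (-0.49, adjusted p = 0.608) and the highest that of Fn1. The third value of each is the mouse with 7 fibroblasts, which did not enter this fit. Set directly against SHP099, over all mice with a cell, the combination also gave no edgeR call among 37 members. There edgeR called 0.0% of all genes, and DESeq2 called 1 member. An unadjusted p below 0.05 was reached by 13 members and by 353 of all 3160 genes. In that comparison Fn1 had a log2 fold change of -0.18 (adjusted p = 0.851) and Col4a1 one of -1.02 (adjusted p = 0.261). The same 10 genes ran from -1.08 for Thbs1 (adjusted p = 0.388) to 0.14 for Lama4 (adjusted p = 0.96).

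**Figure D3:**
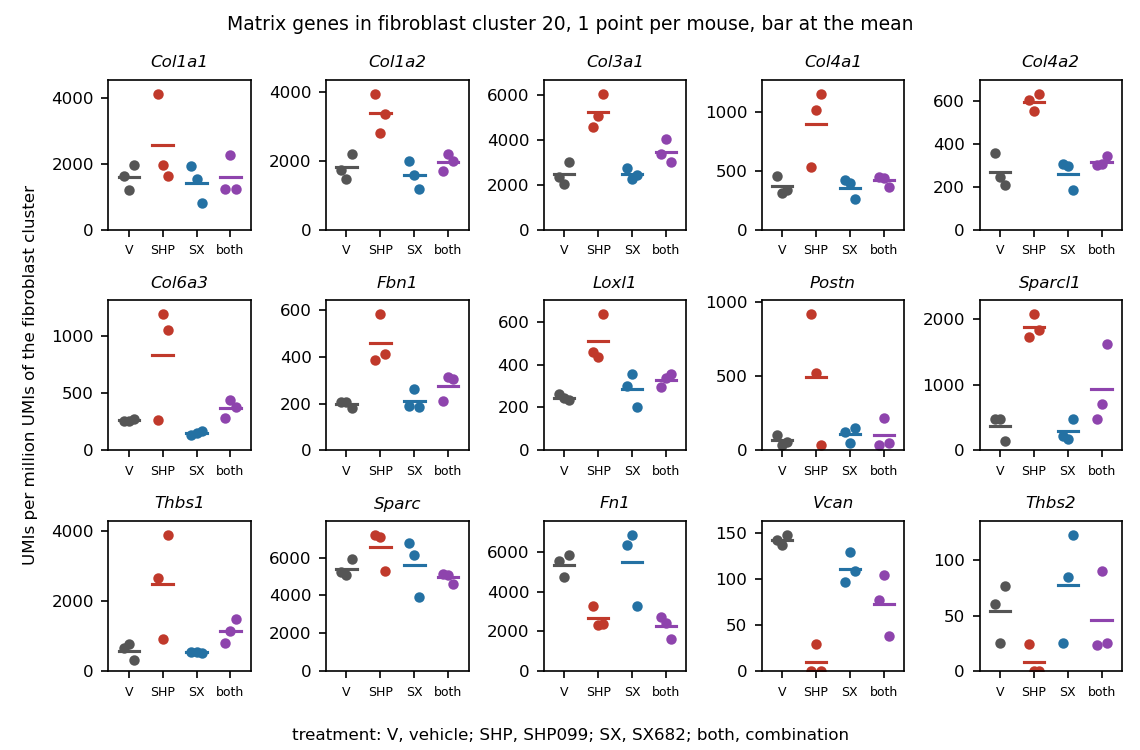
CPM within fibroblasts for 15 matrix genes, 1 dot for each mouse, by treatment (V vehicle, SHP SHP099, SX SX682, both the combination). Fn1 is below the vehicle mice in all SHP099 and combination mice, and Vcan is at 0 in 2 of the 3 SHP099 mice.

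In endothelial cells, the member that fell was Sparcl1, in cluster 10. It stood at 635, 630 and 641 CPM in the vehicle mice, 214, 76.3 and 520 in the SHP099 mice, 254, 271 and 188 in the SX682 mice and 137, 192 and 215 in the combination mice. All 9 treated mice lay below the 3 vehicle mice, but some values rest on few cells. Cluster 10 held 114, 16 and 13 cells in the vehicle mice, 54, 8 and 5 in the SHP099 mice and 285, 48 and 4 in the SX682 mice. The combination gave a log2 fold change of -1.77 ± 0.26 (edgeR adjusted p = 0.000156), a call that no alternative lost. SX682 gave -1.17 ± 0.26 (n = 2 against 3, adjusted p = 0.037), a call lost in 9 of 15 alternatives, among them those without SX682 mouse 1 or 2, vehicle mouse 1 or 2, SHP099 mouse 1 or combination mouse 2 (adjusted p up to 0.464). SHP099 gave -1.47 ± 0.34 over all mice with a cell (adjusted p = 0.0318). Mgp was called higher in cluster 10 under the combination, at 241, 1070 and 238 against 130, 74.1 and 107 in vehicle (2.10 ± 0.49, adjusted p = 0.0152), a call lost in 7 of 15 alternatives, among them those without combination mouse 2, SHP099 mouse 1 or any 1 vehicle mouse (adjusted p up to 0.315). The combination count of 2 was then 1.

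Out of 12 members tested in cluster 10, the combination called 2 (2.22% of all genes called) and SX682 called 1 (0.454% of all genes). SHP099 called 0 with edgeR, at 1 SHP099 mouse of at least 10 cells (0.328% of all genes called, 5 members at an unadjusted p below 0.05, and 0 with DESeq2). Over all mice with a cell, SHP099 called 1 of 9 (0.914% of all genes). The type IV chains, which endothelial cells place in the vessel's basement membrane, did not pass. Col4a1 stood at 674, 1000 and 747 in vehicle and 635, 493 and 794 in combination mice (log2 fold change -0.15, edgeR adjusted p = 0.894). Col4a2 stood at 611, 704 and 427 against 342, 402 and 646 (-0.32, adjusted p = 0.716), and Sparc at 1130, 1740 and 1280 against 746, 749 and 1070 (-0.52, adjusted p = 0.337). The Sparc groups did not overlap, the type IV groups did. Thbs1 and Fn1 had adjusted p of 0.374 and 0.855 under the combination. Under SX682, Col4a1 (-0.47), Col4a2 (-0.14), Fn1 (-0.54), Sparc (-0.82) and Thbs1 (0.57) had adjusted p of 0.26 (Sparc) or more. Under SHP099 over all mice, Col4a1 was at -0.04, Col4a2 at -0.20, Sparc at -0.88 and Thbs1 at 2.12, with adjusted p of 0.114 (Thbs1) or more. The 11 endothelial markers summed to 14200, 14900 and 14600 CPM in vehicle mice and between 8370 and 15600 over all mice.

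Endothelial cluster 11 gave no member call. Of 19 members tested, SX682 (1 mouse of at least 10 cells) called 0 with edgeR and 0 with DESeq2, with 3 at an unadjusted p below 0.05 and 0.0594% of all genes called. The combination called 0 with edgeR and 1 with DESeq2, and edgeR called 0.149% of all genes. There were 4 members at an unadjusted p below 0.05, and 382 of all 3367 genes. SHP099, over all mice with a cell, called 0 of 16 with edgeR and 1 with DESeq2, and edgeR called 0.0% of all genes. There were 2 members at an unadjusted p below 0.05, and 234 of all 2117 genes. Sparcl1 stood at 831, 1110 and 1130 in vehicle and 402, 620 and 668 in combination mice, without overlap (log2 fold change -0.89 ± 0.22, edgeR adjusted p = 0.153). Col4a1 stood at 1370, 2070 and 1480 in vehicle, 1600, 2740 and 3220 in SHP099 and 1760, 2130 and 2040 in combination mice. Col4a2 stood at 1210, 1520 and 1060, then 824, 849 and 1320, then 1250, 1490 and 1440. Sparc stood at 3460, 3850 and 2980 in vehicle and 2130, 3040 and 3050 in combination mice. Under the combination, edgeR gave Col4a1 0.24, Col4a2 0.11, Sparc -0.35, Fn1 0.07, Thbs1 0.86, Lama4 -0.52 and Hspg2 -0.27, with adjusted p of 0.385 (Thbs1) or more, and the highest member was Col3a1 (1.84, adjusted p = 0.537). Under SHP099 these were 0.55 for Col4a1, -0.41 for Col4a2, -0.18 for Sparc, -2.76 for Fn1, -0.65 for Thbs1, -1.17 for Lama4 and -0.33 for Hspg2, with adjusted p of 0.445 (Col4a1) or more. Under SX682 the members lay between -1.07 for Eln and 1.62 for Col15a1, both at an adjusted p of 0.982. The lymphatic markers varied within groups, from 102 to 1770 in vehicle and from 0 to 6980 in SHP099 mice.

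Whether the 2 endothelial clusters responded differently was tested as the difference of their effects. No member of 19 passed with edgeR for SX682 (2 at an unadjusted p below 0.05, 0.115% of all genes called) or for the combination (2 at an unadjusted p below 0.05, 0.0917% of all genes called). DESeq2 was not run for these differences, and the number of all genes at an unadjusted p below 0.05 is not given. At the minimum of 10 cells a mouse, SX682 had 1 mouse in cluster 11, and its difference rests on that mouse. For SHP099 the difference was fitted over all mice with a cell, and edgeR called 0 of 17 members (3 at an unadjusted p below 0.05, 0.594% of all genes called). For Sparcl1, the effect in cluster 11 minus that in cluster 10 was 0.86 ± 0.35 under the combination (adjusted p = 0.727) and 1.13 ± 0.50 under SHP099 (adjusted p = 0.765).

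In tumour cluster 21, 3 of 14 members tested fell under SHP099, Col4a2, Fn1 and Nid1, against 5.56% of all genes called. The members had a median log2 fold change of -0.71, with 13 of 14 lower, and all genes one of 0.01. Col4a2 stood at 79.2, 78.5 and 86.3 CPM in vehicle mice and 45.4, 33.3 and 14.2 in SHP099 mice, without overlap (-1.31 ± 0.26, edgeR adjusted p = 0.00768). This call was lost only when clusters 21 and 23 were summed. Col4a1 did not pass, at 108, 112 and 132 against 75.7, 146 and 61.5 (-0.32, adjusted p = 0.491). Fn1 stood at 407, 304 and 268 against 173, 87.5 and 94.6, without overlap (-1.42 ± 0.31, adjusted p = 0.0111). Nid1, which encodes nidogen 1, the linker of laminin and type IV collagen, stood at 24.4, 18.9 and 47.2 in vehicle mice and at 0 in all 3 SHP099 mice (adjusted p = 0.0195). Against a floor of 3 counts over the SHP099 group's 781975 UMIs, 3.84 CPM, Nid1 was at least 7.86-fold lower. The Fn1 call was lost without SHP099 mouse 2 or 3 (adjusted p up to 0.201 over all its alternatives), and the Nid1 call without any 1 of the 3 SHP099 mice (adjusted p up to 0.0868 over all its alternatives). Thbs1 (0.60, adjusted p = 0.306) and Hspg2 (-0.10, adjusted p = 0.928) did not pass. Both the Fn1 and the Nid1 call were lost when mice of at least 20 cells were required, since SHP099 mouse 3 had 15. Without SHP099 mouse 2 the count was 1, as it was without SHP099 mouse 3.

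The combination called 4 of 14 members in cluster 21, 3 lower and 1 higher, against 9.81% of all genes. Fn1 stood at 168, 94.6 and 163, below every vehicle mouse (log2 fold change -1.24 ± 0.26, edgeR adjusted p = 0.00611, lost in no alternative). Nid1 stood at 8.77, 8.11 and 5.28 (-2.09 ± 0.47, adjusted p = 0.011) and Col4a2 at 55.9, 61.3 and 51.0 (-0.57 ± 0.17, adjusted p = 0.0405), both below every vehicle mouse. The Col4a2 call was lost in 9 of 18 alternatives, among them those leaving out any 1 vehicle or combination mouse or SX682 mouse 1 (adjusted p up to 0.204). Thbs1 rose, at 479, 440 and 673 against 294, 232 and 151 in vehicle (1.20 ± 0.29, adjusted p = 0.0138). The Thbs1 call was lost without combination mouse 3, vehicle mouse 2 or vehicle mouse 3 (adjusted p up to 0.0935 over all its alternatives), and the Nid1 call without combination mouse 3 (adjusted p up to 0.0966 over all its alternatives). The count of 4 was 1 without combination mouse 3 and 2 without vehicle mouse 2. Col4a1 stood at 82.2, 77.5 and 104 (-0.44, adjusted p = 0.149). The member median was -0.51, with 11 of 14 lower.

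SX682 alone called 0 of 14 members in cluster 21 with edgeR and 0 with DESeq2, and edgeR called 0.0218% of all genes. There was 1 member at an unadjusted p below 0.05, and 695 of all 9161 genes. Fn1 stood at 206, 356 and 373, Nid1 at 19.5, 22.1 and 48.8 and Col4a2 at 74.3, 59.3 and 86.2, all overlapping vehicle. Members ran from -0.90 for Col6a2 (edgeR adjusted p = 0.607) to 0.37 for Col18a1 (adjusted p = 0.673). Set against SHP099, the combination called 1 member, Sparc, against 0.284% of all genes. Sparc stood at 105, 132 and 149 in combination mice and 48.4, 54.1 and 47.3 in SHP099 mice, with vehicle between them at 84.5, 94.5 and 89.4 (combination against SHP099 1.34 ± 0.25, edgeR adjusted p = 0.0316). That call was lost in 7 of 18 alternatives, among them those without combination mouse 2, combination mouse 3 or any 1 of the 3 SHP099 mice (adjusted p up to 0.774 over all its alternatives). Against vehicle, Sparc passed neither under SHP099 (-0.84, adjusted p = 0.0618) nor under the combination (0.50, adjusted p = 0.065).

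In tumour cluster 23, Nid1, Mgp and Bgn were called lower under SHP099, 3 of 18 members tested, against 13.6% of all genes. The member median was 0.06, with 10 higher and 8 lower. Nid1 stood at 10.8, 10.8 and 15 in vehicle and 0, 2.97 and 4.25 in SHP099 mice, without overlap (log2 fold change -2.22 ± 0.66, edgeR adjusted p = 0.0351). This call was lost in 5 of 18 alternatives, those without any 1 SHP099 mouse or without vehicle mouse 1 or 3 (adjusted p up to 0.117). Col4a1 did not pass, at 70.8, 71.0 and 70.5 against 90.5, 120 and 73.4, where every SHP099 mouse was higher (0.45, adjusted p = 0.0652). Col4a2 stood at 46.3, 42.1 and 42.6 against 49.9, 51.9 and 35.1 (0.08, adjusted p = 0.812), Fn1 at 631, 514 and 487 against 599, 340 and 162 (-0.56, adjusted p = 0.216), and Hspg2 at 32.3, 27.9 and 24.2 against 61.5, 37.8 and 29.8 (0.58, adjusted p = 0.0881). Sparc (0.09, adjusted p = 0.844) and Thbs1 (-0.25, adjusted p = 0.684) did not pass. The count of 3 was 1 without vehicle mouse 1 and 5 without vehicle mouse 2, SX682 mouse 1, 2 or 3, or combination mouse 1 or 3.

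The Mgp and Bgn values in cluster 23 are set here beside those in T and B cells, which are not known as sources of these proteins. Mgp stood at 69.1, 20.2 and 25.4 in vehicle and 0, 4.45 and 0 in SHP099 mice in cluster 23 (log2 fold change -4.36 ± 0.89, edgeR adjusted p = 0.00458). In T cells it stood at 34.6, 36.8 and 26.3 in vehicle and 15.3, 4.55 and 3.16 in SHP099 mice, and in B cells at 35.4, 43.4 and 24.3 against 5.28, 2.24 and 0. Bgn, the small proteoglycan biglycan, stood at 13.9, 4.27 and 4.84 against 0, 2.23 and 0 in cluster 23 (-3.07 ± 0.86, adjusted p = 0.0273, lost without SHP099 mouse 1 or 3 or vehicle mouse 1). In T cells it stood at 4.72, 9.54 and 5.63 against 3.2, 0 and 0.789. For both genes the vehicle values in cluster 23 overlapped those in T cells, and the part of RNA from other cells in these 2 calls was not tested. Under SX682, Mgp was called lower in cluster 23 at 8.47, 1.97 and 0.926 (1 of 18 members called, 0.705% of all genes called), and T cells stood at 39.9, 0.823 and 11.2. In the combination against SHP099, Mgp was called higher in cluster 23 at 33.9, 38.8 and 23.3 (1 of 18 called, 1.74% of all genes), and combination T cells stood at 28.8, 6.38 and 24.9. Combination mice 1 and 3 were close to their T-cell level, while mouse 2 was higher in cluster 23 than in T cells. Fn1 in cluster 21 was above its T-cell level of 56.7, 24.5 and 88.1 in vehicle and 4.48, 5.2 and 5.52 in SHP099 mice, and so was Col4a2, at 9.45, 5.45 and 0 against 0.639, 0 and 3.16. Nid1 in T cells was 3.94, 0 and 3.75 against 1.92, 0 and 0.789. In B cells Nid1 was 15, 4.82 and 12.1 against 15.8, 20.2 and 19.8, close to its vehicle level in cluster 23.

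The combination called 0 of 18 members in cluster 23 with edgeR and 0 with DESeq2, and edgeR called 8.91% of all genes. There were 4 members at an unadjusted p below 0.05, and 2298 of all 9936 genes. Fn1 stood at 275, 318 and 307, below every vehicle mouse (log2 fold change -0.90, edgeR adjusted p = 0.0598), and Col4a1 at 89.7, 95.9 and 97.6, above every vehicle mouse (0.37, adjusted p = 0.13). Col4a2 (-0.06), Sparc (0.20), Thbs1 (0.35) and Hspg2 (0.31) had adjusted p of 0.36 (Hspg2) or more. Macrophage markers within the tumour clusters moved with treatment as well: the 8 genes summed to 512, 513 and 601 CPM in vehicle, 45.4, 66.6 and 66.2 in SHP099 and 210, 250 and 357 in combination mice in cluster 21. Their part in the Fn1 values was not tested. The tumour epithelial markers in cluster 21 summed to 11600, 11900 and 13900 in vehicle and 8440, 10200 and 6860 in SHP099 mice.

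The SHP099 effect differed between the tumour clusters for 2 of 18 members, Col4a2 and Col6a1, with 8 at an unadjusted p below 0.05 and 0.764% of all genes called. For Col4a2 the effect in cluster 23 minus that in cluster 21 was 1.45 ± 0.26 (edgeR with mouse as a block, adjusted p = 0.0188), and for Col6a1 it was 1.98 ± 0.40 (adjusted p = 0.0246). Col6a1 stood at 54.6, 29.8 and 24.5 in vehicle and 9.08, 20.8 and 4.73 in SHP099 mice in cluster 21, and at 64.7, 48.2 and 31.7 against 73.1, 70.5 and 21.3 in cluster 23. With no mouse term the count of 2 was 0. It was 0 without SHP099 mouse 2, and 1 without SHP099 mouse 1, vehicle mouse 1 or vehicle mouse 3. For SX682 the difference was called for 0 of 18 members with edgeR (4 at an unadjusted p below 0.05, 0.0% of all genes called). For the combination it was also called for 0 of 18 (8 at an unadjusted p below 0.05, 0.206% of all genes called). Col4a1 stood there at 0.82 ± 0.17 (edgeR adjusted p = 0.0515). DESeq2 was not run for these differences, and the number of all genes at an unadjusted p below 0.05 is not given.

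**Figure D4:**
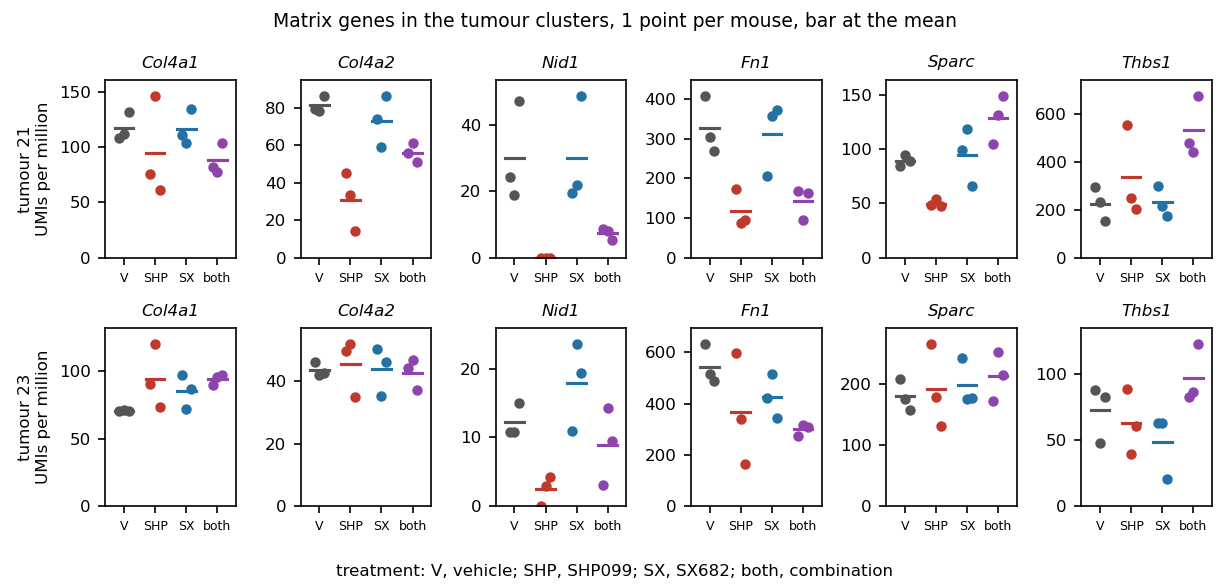
CPM within tumour clusters 21 and 23 for 6 matrix genes, 1 dot for each mouse, by treatment. In cluster 21, Col4a2, Fn1 and Nid1 are lower in every SHP099 mouse than in every vehicle mouse, while Col4a2 in cluster 23 overlaps between these groups.

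In macrophages (clusters 15 and 25 summed), only Fn1, Thbs1 and Vcan were counted as members. Thbs1 and Vcan peaked outside the fibroblast, endothelial and tumour clusters, and Fn1 was added as a gene followed in every set. None of these 3 was called with edgeR or with DESeq2. SHP099 called 0 of 3 (1 at an unadjusted p below 0.05, 10.3% of all genes called), SX682 0 of 3 (0 at an unadjusted p below 0.05, 0.582% of all genes), and the combination 0 of 3 (2 at an unadjusted p below 0.05, 5.39% of all genes). Of all 10315 genes, 2554, 714 and 1926 had an unadjusted p below 0.05 under SHP099, SX682 and the combination. A further 10 members passed the low-count filter. Among them edgeR called Bgn, Col14a1, Col4a1, Col4a2, Mgp and Sparc lower under SHP099, Col3a1 and Mgp lower under SX682 and Col4a1 lower under the combination. Values in vehicle macrophages are given on TMM-scaled library sizes (SD, n = 3), beside unscaled CPM in vehicle T cells. Sparc stood at 20.8 ± 7.14 CPM in macrophages and 20.5, 19.1 and 15 in T cells, Mgp at 47.6 ± 12.5 against 34.6, 36.8 and 26.3, and Bgn at 3.64 ± 1.06 against 4.72, 9.54 and 5.63. Col4a1 stood at 12.1 ± 2.2 against 17.3, 2.73 and 3.75, Col4a2 at 6.29 ± 3.04 against 9.45, 5.45 and 0, and Col3a1 at 3.55 ± 1.55 against 2.36, 2.73 and 13.1. The part of RNA from other cells in these calls was not tested. Col14a1 stood at 10.7 ± 1.33 in vehicle and 2.45 ± 1.87 in SHP099 macrophages (SD, n = 3, log2 fold change -2.08 ± 0.52, edgeR adjusted p = 0.0184), with 0.787, 0 and 1.88 in vehicle T cells. Fn1 had a log2 fold change of -0.64 under SHP099 (edgeR adjusted p = 0.119) and -0.62 under the combination (adjusted p = 0.18). In cluster 16, which was not tested, Fn1 stood at 2750, 2010 and 1570 in vehicle, 979, 725 and 1360 in SHP099 and 321, 1190 and 1410 in combination mice, below every vehicle mouse in each case. Thbs1 in neutrophils, also not tested, stood at 2280, 2650 and 2490 in vehicle, 3520, 2980 and 3260 in SHP099 and 3400, 3190 and 2800 in combination mice, above every vehicle mouse.

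In the sorted Epcam+ cells, fibrillar collagens and most other members were lower under SHP099 in the bulk libraries, but edgeR called 0 of the 38. The median log2 fold change was -0.96 over the members, with 33 lower and 5 higher, and 0.00 over all genes. At an unadjusted p below 0.05 there were 29 of 38 members, and 1812 of all 20314 genes. In the main edgeR fit 0.113% of all genes were called. DESeq2 called 22 members, and edgeR called 20 with no low-count filter and 3 with a replicate block. The share of all genes called in these alternatives is not given here. All 6 fibrillar collagens were lower, with a median of -1.55. Values below are CPM on TMM-scaled library sizes (a correction for library makeup). Col1a1 stood at 327, 503 and 292 in vehicle and 124, 133 and 80.8 in SHP099 libraries (-1.73 ± 0.26, edgeR adjusted p = 0.0814). Col1a2 stood at 202, 293 and 174 against 98.4, 113 and 65.5 (adjusted p = 0.147), and Col3a1 at 659, 1180 and 605 against 393, 390 and 239 (adjusted p = 0.224). Col5a3 had the lowest fold change, at 17.2, 24.8 and 13.4 against 4.59, 4.96 and 2.84 (-2.16 ± 0.31, adjusted p = 0.0739). None of these 4 genes' groups overlapped. In the single-cell data, Col1a1 UMIs were few in the tumour clusters. Vehicle mice had 8, 4 and 20 in cluster 21 and 84, 6 and 12 in cluster 23, against 1545, 728 and 827 in fibroblasts. SHP099 mice had 0, 0 and 0 in cluster 21 and 21, 0 and 0 in cluster 23. Which cells in the sort supplied the bulk collagen reads was not tested.

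Type IV collagen did not share that direction. Col4a1 stood at 1020, 1330 and 894 in vehicle and 1260, 1160 and 1030 in SHP099 libraries (0.09, edgeR adjusted p = 0.903), and Col4a2 at 306, 462 and 337 against 434, 486 and 331 (0.18, adjusted p = 0.823). Both overlapped. Col18a1, Eln and Sparcl1 were the other members with a fold change above 0, and none of the 5 passed. Elsewhere in the basement membrane group, Nid1 stood at 110, 179 and 127 against 88.7, 88.3 and 62.1 (-0.80, adjusted p = 0.276), with Lama4 at -0.53 (adjusted p = 0.509) and Hspg2 at -0.25 (adjusted p = 0.758). Because the counting was unstranded, reads from the overlapping first exons of Col4a1 and Col4a2 cannot be told apart.

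Among adhesive and matricellular genes, Fn1 stood at 1770, 2480 and 2570 in vehicle and 757, 790 and 1350 in SHP099 libraries, without overlap (-1.24 ± 0.26, edgeR adjusted p = 0.159). Thbs1 stood at 218, 273 and 243 against 157, 130 and 137, also without overlap (-0.79 ± 0.12, adjusted p = 0.0837). Thbs2, a relative of Thbs1, stood at 25.8, 37.0 and 19.3 against 6.78, 8.34 and 4.17 (-2.09, adjusted p = 0.0837). Sparc did not pass (-0.46, adjusted p = 0.461), nor did Mgp, at 412, 602 and 308 against 222, 208 and 111 (-1.29, adjusted p = 0.231). Levels were also put on a scale per kilobase of exon. The length counts every annotated exon of a gene, which can exceed the transcript present, so genes compare only roughly. Mgp stood at 369 RPKM in vehicle libraries, Sparc at 281, Fn1 at 193, Col4a1 at 144, Col3a1 at 82.6, Col1a1 at 56.7 and Col5a3 at 2.70. In SHP099 libraries these levels were 153, 207, 82.6, 155, 35.0, 17.3 and 0.613 RPKM.

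In bulk samples, fewer cells of a type and less RNA per cell cannot be told apart. Marker genes of other cell types were detected in the sorted cells. The fibroblast markers summed to 493, 695 and 765 CPM in vehicle and 735, 865 and 530 in SHP099 libraries, and the groups overlapped. The mural markers summed to 114, 105 and 82.6 against 103, 99.7 and 84.3, the endothelial markers to 2050, 2820 and 1640 against 4050, 2700 and 1060, and the mesothelial markers to 1730, 2050 and 2800 against 1830, 2180 and 1990. The macrophage markers, in contrast, summed to 615, 600 and 633 against 425, 274 and 263, and the alveolar type 2 markers to 4540, 3130 and 7010 against 294 and 306 in SHP099 libraries 1 and 2, the third also lying below every vehicle library. Which cells these marker reads came from, and their part in the collagen values, was not tested.

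**Figure D5:**
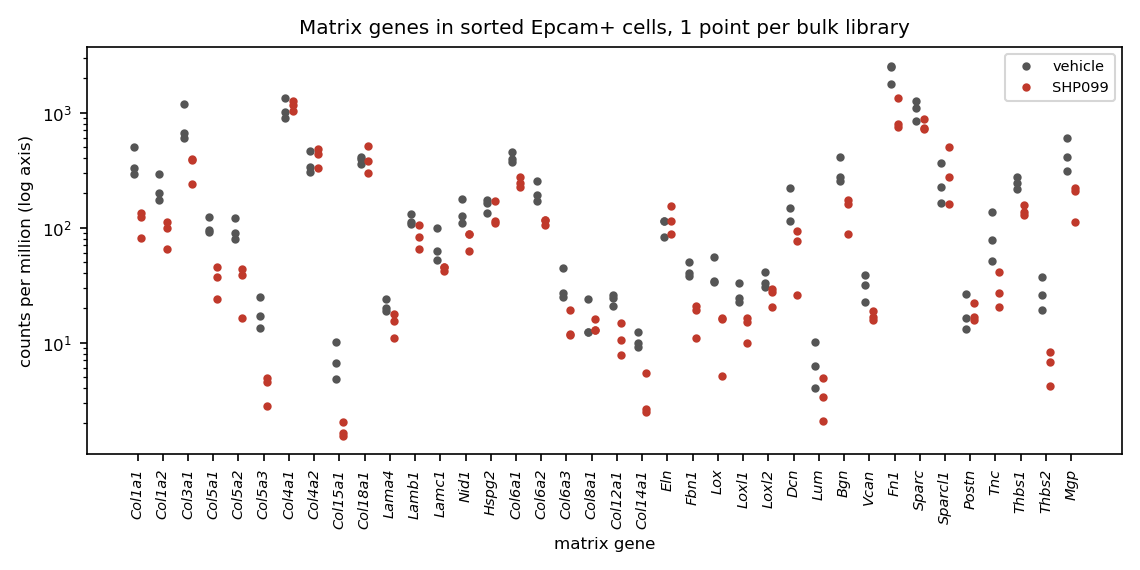
CPM (log axis, TMM-scaled) of the 38 matrix genes in the 6 bulk libraries of Epcam+ cells, 1 dot for each library, vehicle and SHP099. All 6 fibrillar collagens lie lower in SHP099 libraries, while Col4a1 and Col4a2 overlap between the groups.

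Genes that process collagen or bind the matrix, which are not members, were counted beside them. In SHP099 fibroblasts (all mice with a cell, 11.5% of all genes called), 2 of 14 collagen synthesis genes were called higher, Pcolce2, an enhancer of procollagen processing (log2 fold change 3.95, edgeR adjusted p = 0.00466), and the N-propeptidase Adamts2. Bmp1, Crtap and Plod2, 3 of the 14, were called lower. Of 12 matrix receptors there, Itga8 (2.79), the collagen receptor Ddr2 (1.96) and Itga1 (2.23) were called higher and 0 lower, and 0 of 2 other laminin and basement membrane genes were called. Under the combination (3.43% of all genes called), 1 of 18 synthesis genes, Pcolce2 (3.11), 1 of 16 receptors, Itga8 (2.99), and 1 of 5 other laminins, Lama2 (2.90), were called higher in fibroblasts. P4hb, Bmp1 and Crtap, 3 of the 18, and Sdc1, 1 of the 16, were called lower. SX682 gave 0 edgeR calls among the 18, 16 and 5 genes of these lists. In both tumour clusters the laminin receptor chains Itga6 and Itgb4 were called lower under SHP099, Itga6 at -1.06 in cluster 21 and -0.67 in cluster 23, and Itgb4 at -0.92 and -0.47. In cluster 21 these were 2 of 13 receptors, and 0 of 14 synthesis genes and 0 of 5 other laminins were called, against 5.56% of all genes. In cluster 23, against 13.6% of all genes, Agrn (0.88) and Lama5 (0.62), 2 of 6 other basement membrane genes, were called higher. So were Itga1 and Itgav, 2 of 15 receptors, and the hydroxylase-complex gene P3h4, 1 of 16 synthesis genes, while Crtap, P4ha2 and P4hb, 3 of the 16, were called lower. In the bulk libraries, edgeR called 0 of 20 synthesis genes, 0 of 19 receptors and 0 of 16 other laminins.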

How the data were processed

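Single-cell counts were deposited by the authors as raw UMI counts for each gene and cell, with cluster numbers from iCellR and each cell's treatment and hashtag, per the file headers; how doublets were treated is not given in the sources used here. Bulk counts were deposited by the authors as unnormalised reads for each gene, counted without strand per the labels. The submitters' processing notes list bcl2fastq, Cell Ranger, STAR, Picard, HTSeq, DESeq2, bedtools and R 3.3.0 on mm10, without saying which made which file.

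UMIs were summed over the cells of a cluster in each mouse, keeping mice with at least 10 cells. A fit over every mouse with at least 1 cell was added after seeing the data, since it alone holds SHP099 mice in fibroblasts and endothelial cluster 11. Each cell set was fitted over its 4 treatments, and bulk libraries over 2, with edgeR 4.0.16 (R 4.3.3; a two-sided quasi-likelihood test after TMM scaling and the filterByExpr filter, with Benjamini-Hochberg adjustment over all genes tested and calls at an adjusted p below 0.05), after the script was tested on simulated data. DESeq2 1.42.0 was an alternative. Differences between clusters were tested with mouse as a block. Means, shares and plots used Python 3.11.15, pandas 2.3.3 and matplotlib 3.10.9. Cell types were named from marker lists, where a marker was met at a log2 fold of at least 1 over the cells outside the cluster. A minimum of 100 CPM applied only to the leading genes of a cluster. Single-cell CPM in the text are on plain library sizes unless said. The biological coefficient of variation was 30.4% in bulk and between 12.3 and 21.8% in the cell sets. A count of 0 was given a floor of 3 counts over the group, for counting error only.

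The members and lists were chosen with earlier results of these data known. Called members are named, up to 10 by fold with full values, and Col1a1, Col1a2, Col3a1, Col4a1, Col4a2, Fn1, Sparc, Thbs1, Lama4 and Hspg2 whether or not they passed. In macrophages only Fn1, Thbs1 and Vcan were counted as members. Alternatives covered the count model, scaling, low-count filter, minimum cells, summed tumour clusters, replicate block and leaving out each mouse or library.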

Additional observations from a re-analysis of the deposited data

Results flagged for a closer look

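Col4a2 moved in opposite directions under SHP099 in fibroblasts and in tumour cluster 21. Its log2 fold change was 1.00 in fibroblasts, over all mice with a cell, and -1.31 in cluster 21. The values of the 3 SHP099 mice lay above all 3 vehicle mice in the first and below them in the second. The difference between these cell types was not tested.

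Sparcl1 likewise had a log2 fold change of 2.22 under SHP099 in fibroblasts and of -1.47 in endothelial cluster 10, both over all mice with a cell. This difference was not tested either.

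Between the tumour clusters the difference was tested. The SHP099 effect in cluster 23 minus that in cluster 21 was 1.45 for Col4a2 and 1.98 for Col6a1, each past the threshold with edgeR and mouse as a block, and neither with no mouse term.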

How the results depend on the processing

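The comparisons refitted under the alternatives held 29 member calls, of which 5 were lost in no alternative: Vcan under SHP099 and Fn1 under the combination in fibroblasts, Sparcl1 under the combination in endothelial cluster 10, Fn1 under the combination in tumour cluster 21, and Mgp under SHP099 in cluster 23, the last with vehicle values that overlapped those in T cells. Not among the 29 are Sparcl1 under SHP099 in cluster 10 over all mice with a cell, the macrophage calls other than Fn1, Thbs1 and Vcan, and the cluster differences of Col4a2 and Col6a1. Over 484 alternatives for the 29 calls, 350 kept the call, 134 lost it and 0 reversed it. In the counts below, the cause of a changed count was not tested. The share of all genes called under each alternative is not given here.

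With DESeq2 in place of edgeR the number of members called was 22 in bulk; in fibroblasts 1 for SX682, 2 for the combination and 1 for the combination against SHP099; in endothelial cluster 11, 1 for SHP099 and 1 for the combination; and 0 for SX682 in tumour cluster 23. With no low-count filter it was 20 in bulk, and in fibroblasts 7 for SX682, 7 for the combination and 2 for the combination against SHP099. With no filter it was also 1 for SHP099 and 0 for SX682 in cluster 10, and 1 for SHP099 and 3 for the combination in cluster 11. In cluster 21, no filter gave 8 for SHP099, 9 for the combination and 3 for the combination against SHP099. In cluster 23 it gave 12 for SHP099, 11 for SX682, 5 for the combination and 7 for the combination against SHP099, and in macrophages 1 for SHP099 and 2 for the combination. DESeq2 size factors within edgeR gave 1 for SHP099 in cluster 10. Over all mice with a cell, cluster 10 gave 1 for SHP099, 0 for SX682 and 1 for the combination. With at least 20 cells a mouse, it gave 0 for SX682 and 1 for the combination, and cluster 21 gave 1 for SHP099 and 0 for the combination against SHP099. With clusters 21 and 23 summed, the cluster 21 counts became 1 for the combination and 0 for the combination against SHP099, and those of cluster 23 became 0 for SX682, 1 for the combination and 0 for the combination against SHP099. With no mouse term the count for the tumour cluster difference under SHP099 was 0. Per cell, the summed level was 0.236 of vehicle under SHP099 and 0.295 under the combination.

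With a replicate block the count was 3 in bulk, 3 for SHP099 in cluster 10, 2 for the combination in cluster 11, and 2 for SX682 and 1 for the combination in cluster 23. In fibroblasts under SHP099 the replicate block gave 10. The main fits treated same-numbered samples as unpaired, and whether they are paired is not settled here. Over 74 pairs of same-numbered samples, the correlation of their deviations ran from -0.141 to 0.223 and was over 0.1 in 9. In 53 of 132 comparisons, each among 3 samples, a sample correlated best with its own number. This was 0 of 6 in bulk and in fibroblasts, and 4 of 6 in each endothelial cluster. It was 14 of 36 in cluster 21, 18 of 36 in cluster 23 and 13 of 36 in macrophages.

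Leaving out 1 mouse or library at a time, the counts ran as follows. Bulk stayed at 0. Fibroblasts gave 3 to 12 for SHP099, 0 to 1 for SX682, 1 to 1 for the combination and 0 to 0 for the combination against SHP099. Cluster 10 gave 0 to 3 for SHP099, 0 to 1 for SX682 and 1 to 3 for the combination. Cluster 11 gave 0 to 1 for SHP099, 0 to 0 for SX682 and 0 to 1 for the combination. Cluster 21 gave 1 to 4 for SHP099, 0 to 0 for SX682, 1 to 5 for the combination and 0 to 1 for the combination against SHP099. Cluster 23 gave 1 to 5 for SHP099, 0 to 2 for SX682, 0 to 2 for the combination and 0 to 1 for the combination against SHP099. Macrophages gave 0 to 0 for SHP099, 0 to 1 for SX682 and 0 to 1 for the combination. The endothelial difference stayed at 0, and the tumour cluster difference gave 0 to 2 for SHP099, 0 to 0 for SX682 and 0 to 1 for the combination. The ratio of the summed level to vehicle ran from 0.421 to 0.486 for SHP099, from 0.648 to 1.21 for SX682 and from 0.555 to 0.641 for the combination. Where 1 mouse was left in a group, it was assumed to vary like the other groups. Few cells limit the SHP099 comparisons in fibroblasts and both endothelial clusters.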

Other observations

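The 2 type IV collagen chains assemble in a fixed proportion, and the ratio of Col4a1 to Col4a2 UMIs is given here as values with no test. In tumour cluster 21 it was 1.37 to 1.52 in the vehicle mice and 1.67, 4.33 and 4.38 in the SHP099 mice, where the UMIs of Col4a1 and Col4a2 were 25 and 15, 13 and 3, and 35 and 8. It was 1.49 to 1.75 in SX682 and 1.26 to 2.03 in combination mice. In endothelial cluster 11 it was 1.14 to 1.40 in vehicle, 1.94 to 3.22 in SHP099, 1.12 to 2.19 in SX682 and 1.40 to 1.43 in combination mice. In tumour cluster 23 it was 1.53 to 1.69 in vehicle, 1.81 to 2.31 in SHP099, 1.88 to 2.04 in SX682 and 2.03 to 2.63 in combination mice, so that every treated mouse was above every vehicle mouse under each treatment. In fibroblasts the groups overlapped, at 1.28 to 1.60 in vehicle, 0.880 to 1.84 in SHP099, 1.34 to 1.42 in SX682 and 1.07 to 1.51 in combination mice. Col4a1 and Col4a2 are counted from their 5′ ends, which overlap in the genome, and the part of that overlap in the ratio was not tested.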
